A study of Mus musculus with 2 samples.

Results

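Lin28b, Hmga2, Igf2bp1, Igf2bp2 and Igf2bp3 were examined as the genes of the fetal timing program, 5 of 32285 genes listed in both libraries. They were chosen by name, and all 5 had UMIs in both libraries. Molecules were counted by UMI, a random tag added to each RNA copy before amplification. The cells came from E14.5 fetal livers of CD1 mice, depleted of lineage-positive cells and sorted as LSK progenitors, which carry SCA1 and cKIT but no lineage marker. The sample titles name LT-HSCs instead, the long-term stem cells that form a small part of the LSK population, and the labels do not settle which is meant. The IκBα WT library was a pool of 2 embryos and the IκBα KO library a pool of 3 embryos, in which Nfkbia, the gene of IκBα, is inactivated in every cell of the body. Both came from matings of heterozygous animals, and the methods name a Gfi1:tomato reporter in some of the breeders without saying whether these embryos carried it. With 1 library per genotype there were no replicates and no test, and all intervals are 95% intervals that cover counting error only, not the spread between embryos or libraries.

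LIN28B is an RNA-binding protein that blocks the maturation of let-7 microRNAs and is known for setting the fetal type of blood formation. HMGA2, a chromatin protein that bends AT-rich DNA, is among the best known let-7 targets, and in fetal stem cells it acts downstream of LIN28B. IGF2BP1, IGF2BP2 and IGF2BP3 are a family of RNA-binding proteins that bind and stabilise fetal messages, and they too are let-7 targets.

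The sequences that link the 5 genes are those of let-7 and of the sites it pairs with. Mature let-7 sequences (RefSeq, GRCm38.p6) are shown with the seed, bases 2 to 8, in capitals. The seed GAGGUAG was shared by 10 mature sequences from 12 loci, whereas let-7j carried GAGGUAU.
let-7a-5p: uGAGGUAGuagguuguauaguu
let-7g-5p: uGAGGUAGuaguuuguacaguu
miR-98-5p: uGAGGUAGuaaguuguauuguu
let-7j: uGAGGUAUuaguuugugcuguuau

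The 7 letters that pair with the common seed, CTACCTC on the transcript strand, were searched in the longest annotated 3′ UTR of each gene (GENCODE vM21, GRCm38). Lin28b, Hmga2 and Igf2bp1 each held 4 matches, and Igf2bp2 and Igf2bp3 held 1 each. Of 21020 genes with a 3′ UTR, 9.02% held at least 1 match and 0.0571% held 4 or more. Because 3′ UTRs differ in length, those within 25% of the same length were counted too. Among these, 4 or more matches were found in 0.238% of those like Lin28b (4445 bases), 0.138% of those like Hmga2 (3014 bases) and 0.264% of those like Igf2bp1 (6337 bases). For the shorter 3′ UTRs of Igf2bp2 (1784 bases) and Igf2bp3 (2119 bases), at least 1 match was found in 11.5% and 12.9% of such genes. A match describes letters and is not evidence that let-7 binds there. All 5 genes lie on the minus strand, Lin28b and Hmga2 on chromosome 10 and Igf2bp1, Igf2bp2 and Igf2bp3 on chromosomes 11, 16 and 6. The first match after the stop codon is shown for each with its flanks, 5′ to 3′ on the transcript, the match in capitals.
Lin28b, chr10:45381023-45381029: gggcgggaagtCTACCTCatgcaagcaca
Hmga2, chr10:120364225-120364231: acattcaatttCTACCTCagcatcagttg
Igf2bp1, chr11:95961779-95961785: tgcgaagtaaaCTACCTCaaggtgtgaag
Igf2bp2, chr16:22059474-22059480: acaaataaaagCTACCTCaggtgtttttt
Igf2bp3, chr6:49086788-49086794: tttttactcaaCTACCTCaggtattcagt

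In Lin28b and Hmga2 the first match lay 36 and 58 bases after the stop codon, and the last lay at 89.9% and 86.0% of the 3′ UTR. In Igf2bp1 all 4 lay between 27.1% and 84.5% of its length. Mature let-7 carries no poly-A tail and was not measured by these libraries.

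**Figure D1:**
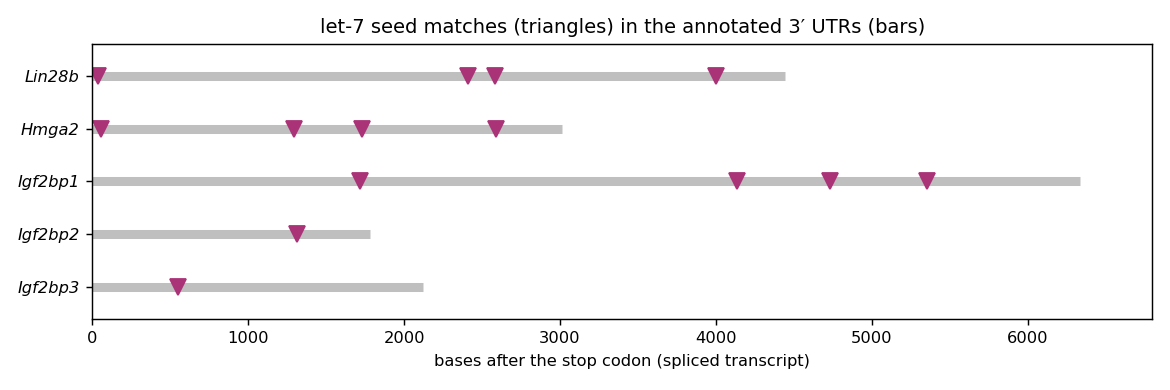
Positions of the let-7 seed match in the annotated 3′ UTR of the 5 genes, in bases after the stop codon (horizontal axis); grey bars are the 3′ UTRs and triangles the matches. Lin28b, Hmga2 and Igf2bp1 hold 4 matches each, Igf2bp2 and Igf2bp3 hold 1 each.

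Cells were gated on the number of marker genes with a UMI, after thinning each cell to 8500 UMIs, which left 3329 WT and 4038 KO cells. The WT library held 109122324 UMIs and the KO library 100029143, and WT cells were deeper (median 28065 against 19560 UMIs). The KO library also contained male cells, since 18.1% of its gated cells had Y-linked but no Xist UMIs, and 0.0901% of WT cells did. Nfkbia checked the labels, with 1464 UMIs in WT and 6 in KO cells, and in the stem cell gate 211 in WT and 0 in KO, at least 50.2-fold lower by the floor of 3 UMIs. The sort label was met only in part. The stem cell gate (at least 2 of 9 markers such as Hlf and Mecom, 533 WT and 470 KO cells) had Kit UMIs in 53.8% of WT cells and Ly6a UMIs, the message of SCA1, in 18.9%. An erythroid gate (at least 5 of 10 markers) took 45.2% of the WT and 51.8% of the KO library, and there Kit was detected in 16.2% and Ly6a in 0.598% of WT cells. The libraries shared 7 cell barcodes.

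The level of each gene was first compared across gates. Lin28b was at a like level in stem cell, lymphoid-primed and erythroid gates and lower in neutrophil-primed cells and macrophages. Hmga2 was highest in the lymphoid-primed and stem cell gates, Igf2bp2 in the stem cell gate, and both were low in erythroid cells. Igf2bp1 was broad, and Igf2bp3 was high in lymphoid-primed cells. Levels are UMIs per 1000000 UMIs of a gate (CPM) and are compared between gates within a gene, since counts from the 3′ end do not rank different genes.

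Lin28b had 26.8 CPM (23.8 to 30.2) in the WT stem cell gate and 24.9 CPM (23.6 to 26.2) in the WT erythroid gate, a fold of 1.08 (0.945 to 1.23). In KO the values were 30.9 and 26.3 CPM, a fold of 1.17 (1.02 to 1.35). The lymphoid-primed gate was the highest in both libraries, with 29.1 CPM (WT) and 32.5 CPM (KO), and its interval overlapped that of the stem cell gate. The neutrophil-primed gate was lower, at 18.3 and 23.1 CPM, with the stem cell gate 1.47-fold (1.13 to 1.93) and 1.34-fold (1.04 to 1.74) above it. In the order of all 10 gates, every gate overlapped the next one in its interval in both libraries. Macrophages held 11.8 CPM in WT and 12.95 in KO, and megakaryocytes 12.9 and 21.2 CPM. Endothelial cells held 4.41 CPM from 3 UMIs in WT and 18.1 CPM from 16 UMIs in KO.

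Hmga2 spanned a far wider range. The lymphoid-primed gate, cells with markers such as Flt3 and Il7r, held 585 CPM (563 to 607) in WT cells and, in KO cells, 474 CPM (452 to 496). The stem cell gate followed with 353 CPM (342 to 364) and 326 CPM (313 to 340), below the lymphoid-primed gate in both libraries with intervals that did not overlap. In the neutrophil-primed gate the level was 170 CPM in WT and 194 CPM in KO. Macrophages held 251 CPM in WT and 150 CPM in KO, and endothelial cells 125 and 146 CPM. Erythroid cells held 18.9 CPM (17.8 to 20.1) in WT and, in KO, 24.96 CPM (23.7 to 26.3). The stem cell gate was 18.7-fold (17.4 to 20) above the erythroid gate in WT and 13.1-fold (12.2 to 14.0) in KO. Few droplets carried most of the erythroid Hmga2: without the 5.05% of WT and 7.27% of KO erythroid cells that Scrublet called doublets, its UMIs went from 1061 to 490 and from 1362 to 610. WT megakaryocytes were the lowest gate, with 7.60 CPM from 10 UMIs.

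The share of cells with a UMI at equal depth separated stem-gated from erythroid cells for Hmga2 as well. In the stem cell gate, 90.8% of WT and 85.5% of KO cells had an Hmga2 UMI, and in the erythroid gate 7.31% and 9.75% did. Lin28b was detected in 18.2% and 22.6% of stem-gated cells and in 17.5% and 17.8% of erythroid cells. The order of the other gates by share was not that by CPM throughout, since WT lymphoid-primed cells had an Hmga2 UMI in 88.0% and WT neutrophil-primed cells a Lin28b UMI in 21.2%. WT counts of Hmga2 and Lin28b were 3671 and 279 in the stem cell gate and 1061 and 1396 in the erythroid gate, and the part of free RNA in these levels was not measured. WT Hmga2 in megakaryocytes stood at 5.33% of its level over all cells, and WT Lin28b in erythroid cells at 102%.

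Among the IGF2BP genes, Igf2bp2 was the one with an erythroid level far below its stem cell level, as for Hmga2. It was highest in the stem cell gate, with 58.4 CPM (53.9 to 63.3) in WT and, in KO, 54.6 CPM (49.4 to 60.2), and lowest in the erythroid gate, at 4.69 and 6.58 CPM. The fold between these gates was 12.5 (10.8 to 14.46) in WT and 8.29 (7.18 to 9.59) in KO. The stem cell interval overlapped that of the next gate in both libraries. This was the endothelial gate in WT (45.6 CPM, 31.0 to 64.7) and the hepatocyte gate in KO (44.2 CPM, 34.6 to 55.55). Unlike Hmga2, Igf2bp2 was lower in lymphoid-primed than in stem-gated cells, by a fold of 1.71 (1.44 to 2.05) in WT and 1.65 (1.35 to 2.03) in KO.

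Igf2bp3 had the opposite relation of these gates. It was 120 CPM in the WT and 127 CPM in the KO lymphoid-primed gate, against 65.1 and 73.6 CPM in the stem cell gate and 26.5 and 29.7 CPM in the erythroid gate. The stem cell gate lay at 0.543 (0.485 to 0.608) of the lymphoid-primed level in WT and at 0.579 (0.512 to 0.655) in KO. In WT the monocyte and dendritic gate was as high as the lymphoid-primed gate within counting error, at 122 CPM (107 to 139).

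Igf2bp1 differed less than Igf2bp3 between the lymphoid-primed, stem cell and erythroid gates. It went from 84.1 (WT) and 86.8 CPM (KO) in the lymphoid-primed gate to 69.4 and 76.8 CPM in the stem cell gate. The erythroid gate held 57.6 and 65.5 CPM, with the lymphoid-primed gate 1.46-fold (1.31 to 1.62) and 1.33-fold (1.18 to 1.48) above it. Its highest gate was the hepatocyte gate, with 95.5 CPM (79.3 to 114) in WT and, in KO, 122 CPM (105 to 140), and its lowest the megakaryocyte gate, with 29.7 and 29.1 CPM. The WT hepatocyte and lymphoid-primed gates overlapped in their intervals, and those of KO did not.

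**Figure D2:**
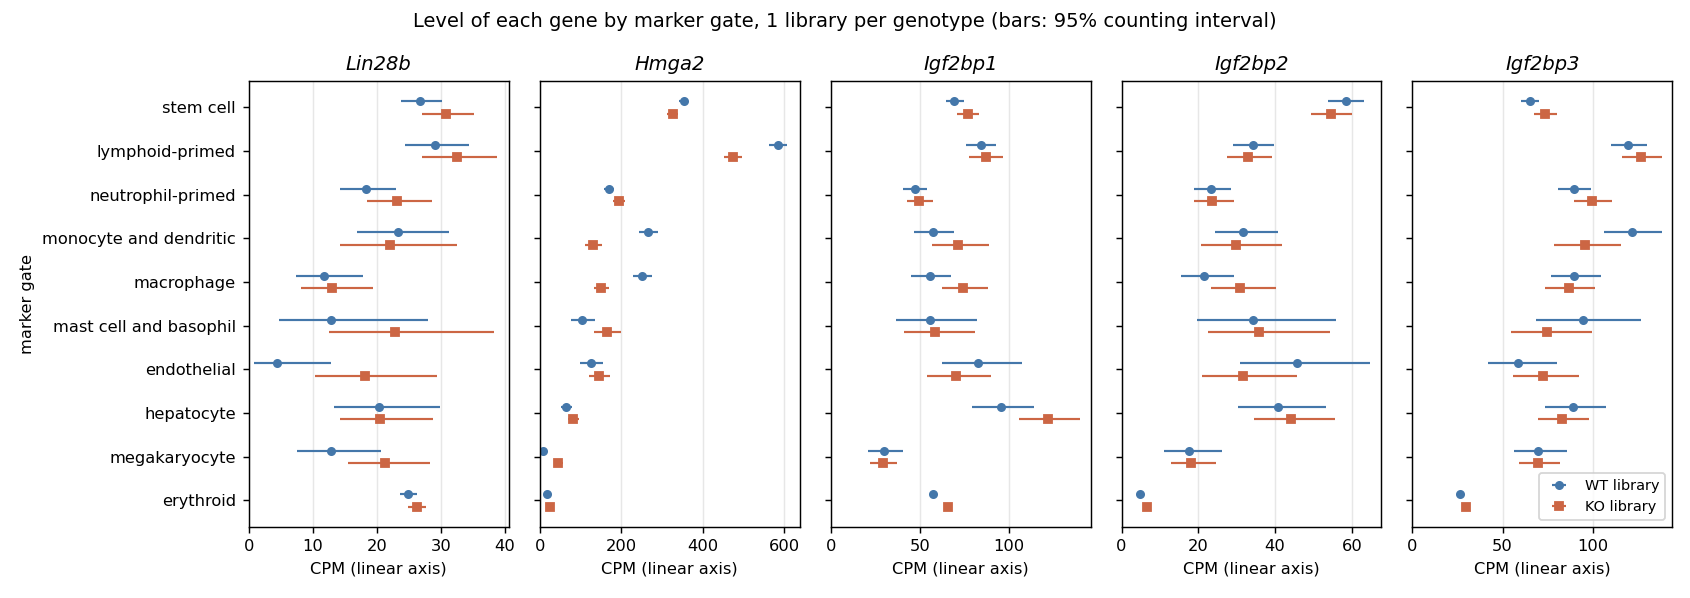
Level of the 5 genes (CPM, linear axes that differ between panels) in 10 marker gates, with WT as circles, KO as squares and bars for 95% counting intervals. WT Lin28b ranges from 29.1 CPM in lymphoid-primed to 4.41 CPM in endothelial cells, and Hmga2 ranges from 585 CPM in WT lymphoid-primed to 7.60 CPM in WT megakaryocyte cells.

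Levels were then compared by the number of erythroid markers per cell, of 10 that included Klf1 and Gata1. Cells with few markers include stem-gated, lymphoid-primed and neutrophil-primed cells, so the number does not order cells along a single lineage. Hmga2 dropped from 383 CPM (375 to 391) in WT cells with 0 markers to 94.0 CPM (83.3 to 106) at 3 markers and 5.06 CPM (3.88 to 6.49) at 8. The KO cells went from 335 CPM (325 to 344) to 116 CPM (103 to 129) and 18.1 CPM (15.8 to 20.8). At 9 or more markers the level was 12.4 CPM in WT and 19.8 CPM in KO, so the fall did not continue past 8 markers. In cells with 2 markers Igf2bp2 was still 38.9 CPM (WT) and 40.3 CPM (KO) and then fell to 1.58 and 4.04 CPM at 9 or more. Igf2bp3 declined more slowly, from 90.7 to 21.9 CPM in WT and from 106 to 22.3 CPM in KO. Lin28b had no such slope, with 24.7 CPM at 0 and 27.1 CPM at 8 markers in WT, and 29.5 and 23.5 CPM in KO. Lin28b message was present at a like level where Hmga2 message was lowest.

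**Figure D3:**
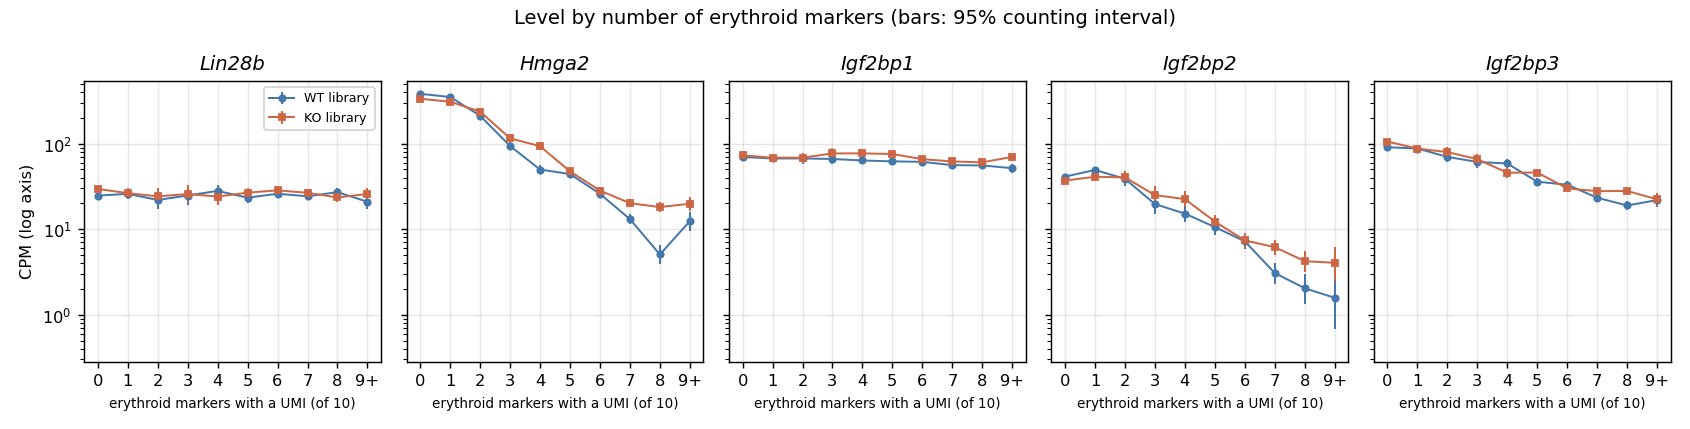
Level of the 5 genes (CPM, log axis) by the number of erythroid markers with a UMI per cell, WT as circles, KO as squares, bars for 95% counting intervals. Hmga2 falls from 383 to 5.06 CPM in WT between 0 and 8 markers, and Lin28b stays between 20.9 and 29.5 CPM over both libraries.

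Within the cells outside the erythroid and non-progenitor gates, the number of stem cell markers gave the reverse order. Hmga2 was 257 CPM (250 to 264) in WT cells with 0 stem cell markers and 486 CPM (449 to 524) in those with 5 or more. In KO cells it was 250 CPM (242 to 258) and 394 CPM (350 to 443). Igf2bp2 went from 26.1 to 73.9 CPM in WT and from 26.6 to 69.4 CPM in KO, while Igf2bp3 went down from 89.6 to 56.9 CPM and from 89.1 to 65.3 CPM. Lin28b was 22.4 and 22.2 CPM at these ends in WT, and 25.01 and 33.3 CPM in KO with overlapping intervals. Cells with 1, 2 or 3 markers held more Lin28b than cells with 0 markers in each library. WT cells peaked at 2 markers with 32.0 CPM (27.6 to 36.8). The KO peak lay at 3 markers, with 36.3 CPM (29.2 to 44.5). Only these peaks had an interval clear of that at 0 markers. WT cells with 4 markers held 23.18 CPM (16.64 to 31.45). KO cells with 4 markers held 22.89 CPM (14.35 to 34.66), below the KO level at 0 markers but with overlapping intervals.

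**Figure D4:**
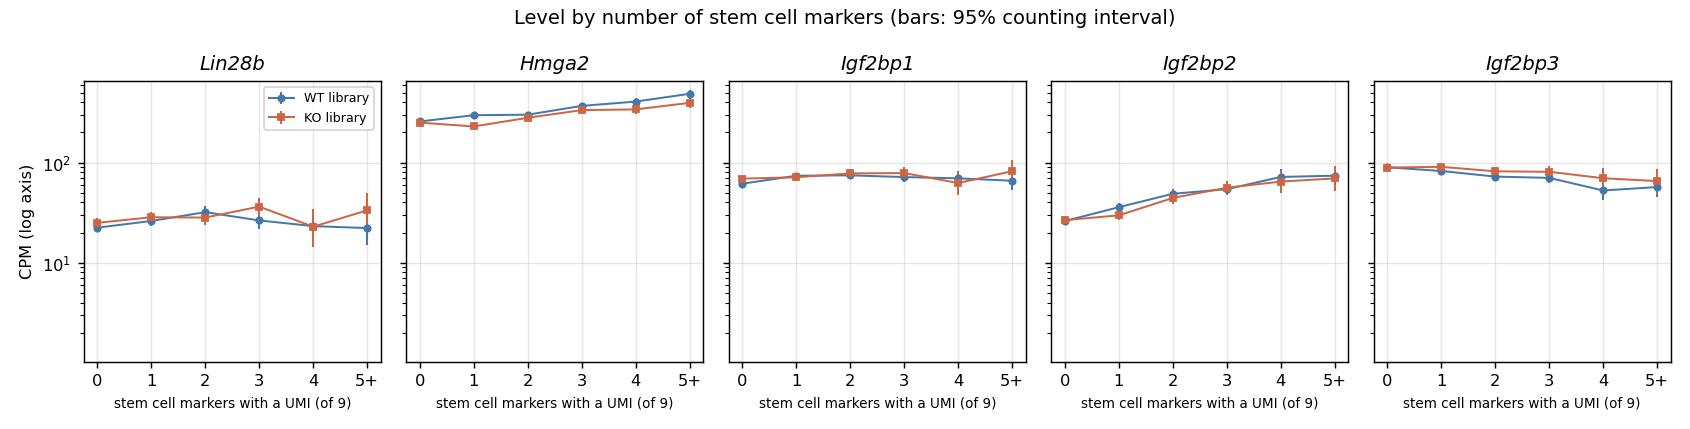
Level of the 5 genes (CPM, log axis) by the number of stem cell markers with a UMI per cell, WT as circles, KO as squares, bars for 95% counting intervals. Hmga2 and Igf2bp2 are higher in cells with more markers and Igf2bp3 is lower. WT Lin28b is 22.4 CPM at 0, 32.0 CPM at 2 and 22.2 CPM at 5 or more markers.

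Stem-gated cells were also split by 10 proliferation markers. Igf2bp3 was higher in cells with at least 5 of them than in cells with at most 2, with 71.7 against 49.5 CPM in WT (log2 0.54, 0.24 to 0.84) and 77.4 against 54.2 CPM in KO (log2 0.51, 0.06 to 1.00). Hmga2 was lower in the proliferating cells in WT, with 340 against 406 CPM (log2 -0.26, -0.37 to -0.14), and in KO the values were 332 and 335 CPM (log2 -0.02, -0.20 to 0.17). The KO cells with few proliferation markers numbered 72, against 176 in WT. In single WT stem-gated cells, an Hmga2 UMI was found in 92.8% of those with and 90.4% of those without a Lin28b UMI, and in KO in 87.7% and 84.9%.

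Over the 10 gates of both libraries (20 points, which share 2 libraries), the pattern of Hmga2 was most like that of Satb1, a chromatin organiser of lymphoid cells (Pearson r = 0.943 of log2(CPM + 1)), which is itself a marker of the lymphoid-primed gate. Kansl1l, Usp3, Tmem173 (the gene of STING, an innate immune adaptor) and Zbed3 followed with r from 0.915 to 0.906. For Lin28b the nearest were Snhg5, Tsr1 and Espl1 (r = 0.858, 0.857 and 0.854), followed by Eprs and Hspa9. Tsr1 acts in ribosome maturation, Espl1 is separase and Eprs a tRNA synthetase. The r between Lin28b and Hmga2 was 0.219, against 0.662 between Hmga2 and Igf2bp2.

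KO was then compared with WT. In the stem cell gate, 0 of 5 genes differed between genotypes by more than 25% of the lower level, where 10.8% of the 8802 genes with at least 100 UMIs did. Lin28b was 30.9 CPM in KO and 26.8 CPM in WT (log2 KO/WT 0.20, -0.06 to 0.46). Hmga2 was 326 against 353 CPM (log2 -0.11, -0.19 to -0.04), a small decrease beyond counting error. Igf2bp3 was 73.6 against 65.1 CPM (log2 0.18, 0.01 to 0.34). For Igf2bp1 (log2 0.15, -0.01 to 0.31) and Igf2bp2 (log2 -0.10, -0.28 to 0.08) the intervals included 0. The median over all tested genes was 0.013 on the same scale. Marker sums differed in both directions in this gate. KO sums were above WT for the erythroid (221 against 153 CPM), megakaryocyte (112 against 55.1 CPM), hepatocyte (109 against 64.6 CPM) and proliferation markers (2307 against 1896 CPM). They were below WT for the stem cell markers (448 against 509 CPM), the lymphoid-primed (238 against 257 CPM), the neutrophil-primed (461 against 485 CPM) and the stromal markers (2.83 against 14.2 CPM). The part of these differences in the values of the 5 genes was not tested.

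In the lymphoid-primed gate, 0 of 5 genes passed that difference of 25%, against 11.3% of all tested genes. Hmga2 was 474 CPM in KO against 585 CPM in WT (log2 -0.31, -0.39 to -0.22), close to that size, and in female cells (Xist and no Y-linked UMI) the value was -0.23 (-0.32 to -0.13). With gates read on all UMIs of a cell it was -0.06. In the neutrophil-primed gate 1 of 5 genes passed (background 13.8%), Lin28b with 23.1 against 18.3 CPM, although its interval included 0 (log2 0.34, -0.13 to 0.81). At equal depth the direction turned, to a log2 of -0.30 (-1.11 to 0.52) with UMIs thinned before summing and to 15.5% of KO against 21.2% of WT cells with a UMI. Hmga2 in that gate had a log2 of 0.19 (0.03 to 0.34), and in the neutrophil-primed cluster, a larger set of 329 WT and 369 KO cells, it was -0.24. That cluster is a different mix of cells, since it also took 92.2% of the WT and 93.6% of the KO monocyte and dendritic gate.

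The monocyte and dendritic gate was small, with 51 WT and 47 KO cells, and 2 of the 3 genes with at least 100 UMIs passed 25% (background 18.8%). Hmga2 was 131 CPM (111 to 154) in KO against 265 CPM (242 to 289) in WT, a log2 of -1.02 (-1.29 to -0.75). With 1 more marker needed for every gate, which gave 54 WT and 45 KO cells here, it was -0.32. At equal depth, 6 KO and 18 WT cells held 3 or more Hmga2 UMIs, and 27 KO and 23 WT cells held none. Igf2bp3 was 95.9 against 122 CPM (log2 -0.34, -0.69 to -0.01). Other progenitor messages moved with it in this gate, since Kit was 19.4 CPM in KO against 45.0 CPM in WT and Flt3 7.92 against 22.8 CPM, whereas the defining Irf8 was 331 against 317 CPM. The stem cell message Hlf had 1 UMI in KO and 27 in WT. Their part in the Hmga2 value was not tested. Macrophages had a lower KO level as well, 150 against 251 CPM (log2 -0.75, -0.97 to -0.53). The macrophage gate also held the stem cell message Hlf (63.5 CPM in WT, 50.7 CPM in KO). Within the KO macrophage gate Hmga2 was 173.5 CPM in the 51 cells with Xist UMIs alone. It was 16.3 CPM in the 11 cells with Y-linked UMIs alone and 258 CPM in the 10 cells with both. WT macrophages with Xist UMIs alone held 254 CPM.

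In the erythroid gate 2 of 5 genes passed 25%, against 7.91% of tested genes. Hmga2 was 24.96 CPM in KO and 18.9 CPM in WT (log2 0.40, 0.28 to 0.52), and Igf2bp2 6.58 and 4.69 CPM (log2 0.49, 0.26 to 0.72). Igf2bp1 (log2 0.19, 0.12 to 0.26) and Igf2bp3 (log2 0.17, 0.06 to 0.27) were higher by less, and Lin28b was 26.3 and 24.9 CPM (log2 0.08, -0.03 to 0.19).

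Within the KO library, erythroid Hmga2 differed with the sex-linked UMIs of the cells. In the KO erythroid gate, 140 of 2092 cells had UMIs of both Xist and Y-linked genes, and these held 70.2 CPM of Hmga2 (63.5 to 77.5) with a median of 37086 UMIs. Cells with Xist alone held 22.6 CPM (21.1 to 24.2, 1429 cells, median 23318 UMIs), and cells with Y-linked UMIs alone held 12.1 CPM (10.1 to 14.46, 411 cells). The lymphoid-primed markers summed to 86.2 CPM in the cells with both, 18.5 CPM in those with Xist alone and 7.09 CPM in those with Y-linked UMIs alone. WT cells were nearly all female, with 2 such cells in the erythroid gate, so leaving out the cells with both removes cells almost only from KO. Without them the log2 KO/WT of Hmga2 in the erythroid gate was 0.05 (-0.07 to 0.18), that of Igf2bp3 was 0.07 (-0.04 to 0.18), and that of Igf2bp2 stayed at 0.38 (0.13 to 0.62). Leaving out Scrublet's doublet calls, which removes cells from both libraries, gave 0.41 (0.24 to 0.58) for Hmga2 and 0.09 (-0.02 to 0.21) for Igf2bp3.

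The sex of the cells bore on the comparison in other ways. Male KO erythroid cells held less Hmga2 than female KO erythroid cells (log2 -0.89, -1.18 to -0.62) and more Igf2bp1 (log2 0.34, 0.22 to 0.45), 78.7 against 62.4 CPM. Neutrophil-primed markers differed too, with 35.2 CPM in these male and 188 CPM in these female cells. The part of other cells or doublets in the Hmga2 difference was not tested. In the stem cell gate Hmga2 was 336 CPM in male and 330 CPM in female KO cells (log2 0.03, -0.14 to 0.19), and Igf2bp3 was 93.3 and 70.9 CPM (log2 0.40, 0.06 to 0.72). Male and female cells come from different embryos of the pool, so sex and embryo cannot be told apart. Among female cells alone, log2 KO/WT in the stem cell gate was -0.11 (-0.19 to -0.03) for Hmga2, 0.18 (-0.10 to 0.46) for Lin28b and 0.11 (-0.07 to 0.30) for Igf2bp3. In the erythroid gate, the log2 of female KO over female WT cells was 0.24 (0.11 to 0.37) for Hmga2. That of male KO over female WT cells was -0.65 (-0.93 to -0.38).

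**Figure D5:**
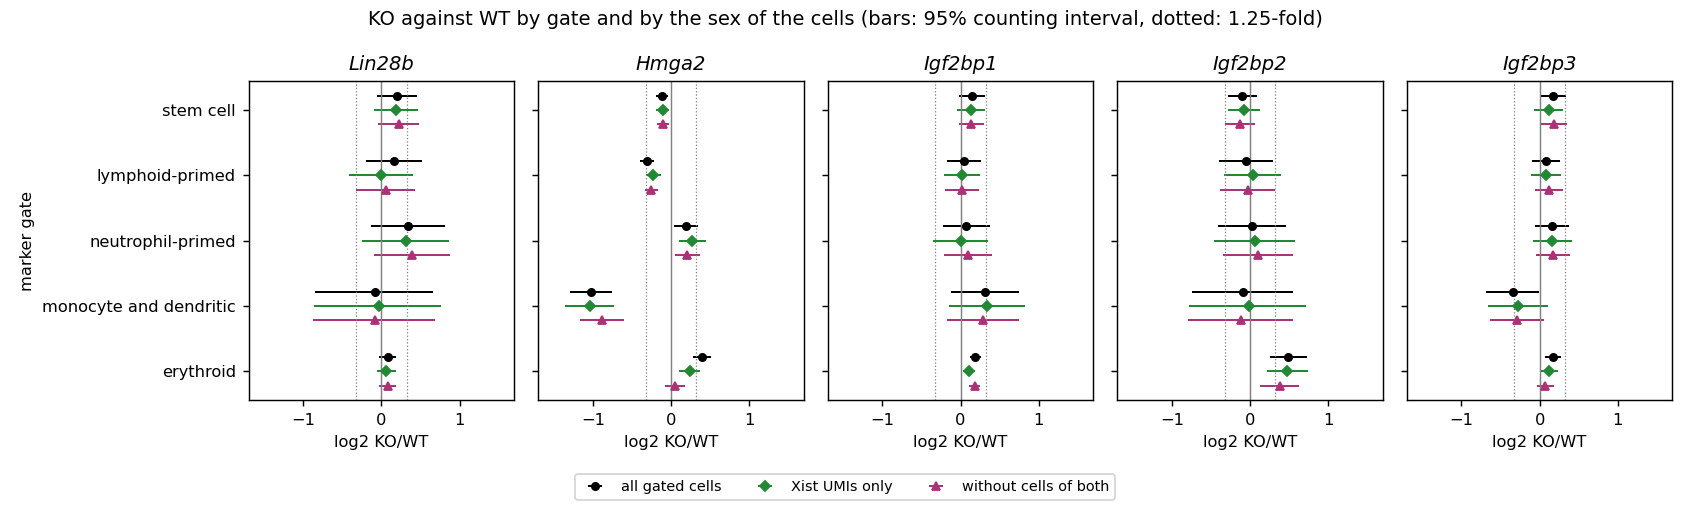
Log2 KO/WT of the 5 genes in 5 gates, for all gated cells (circles), female cells (diamonds) and all cells but those with both (triangles), with 95% counting intervals and dotted lines at 25% of the lower level. In the stem cell gate all 5 genes lie within the dotted lines, and Hmga2 in the erythroid gate moves from 0.40 to 0.05 without the cells of both, nearly all of them KO cells.

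The paralogs differed from the members. Lin28a, the other LIN28 gene, had 0 UMIs in the stem cell gate of either library and 27 UMIs in WT and 8 in KO over all gated cells. Hmga1 was lower in KO, with 70.2 against 110 CPM in the stem cell gate (log2 -0.65, -0.80 to -0.50) and 47.2 against 76.4 CPM in the erythroid gate (log2 -0.69, -0.77 to -0.62). Its near-identical copy Hmga1b went the other way, with 14.4 against 7.69 CPM in the stem cell gate (log2 0.91, 0.48 to 1.34). Reads may be split between these copies, so Hmga1 is uncertain, and for the sum of both the log2 was -0.48 (-0.62 to -0.34).

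Genes of the pathway around let-7 were counted in the stem cell gate. Of the let-7 maturation and decay genes (among them Drosha, Dicer1 and the uridyl transferases Tut4 and Tut7), 0 of 17 with at least 100 UMIs passed 25%, where 4.32% of all tested genes were higher and 6.52% lower, and their median log2 KO/WT was 0.074. Of 26 let-7 target genes, 1 was higher, Arid3b with 8.08 against 5.77 CPM (log2 0.49, -0.05 to 1.03), and 1 was lower, Hmga1, with a median of 0.030. Of 9 messages bound or stabilised by IGF2BP proteins, 1 was lower, Igf2, with a median of 0.021. These medians lie near that of all tested genes.

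Of 13 fetal stem cell program genes, 0 were higher and 4 were lower in the KO stem cell gate, with a median log2 of -0.12, against 6.52% lower among all tested genes. All 4 are imprinted, as are other genes of the list that did not pass, such as Dlk1 (log2 -0.05, -0.21 to 0.12) and Peg3 (log2 0.10, -0.37 to 0.56). The imprinted Cdkn1c did not pass either but was lower beyond counting error, with 78.4 against 96.8 CPM (log2 -0.30, -0.45 to -0.16). Igf2, a fetal growth factor, was 13.5 against 22.3 CPM (log2 -0.73, -1.08 to -0.38), the noncoding H19 45.5 against 69.7 CPM (log2 -0.61, -0.80 to -0.43) and the noncoding Meg3 10.9 against 16.7 CPM (log2 -0.62, -1.02 to -0.23). Igf2r, the receptor that clears IGF2, was 8.08 against 10.5 CPM (log2 -0.37, -0.85 to 0.09). In the stem cell gate, stromal markers (2.83 against 14.2 CPM) and stem cell markers (448 against 509 CPM) were lower in KO too. Hepatocyte markers there were higher (109 against 64.6 CPM). The part of these marker differences in the values of the list was not tested. In the erythroid gate 5 of 14 genes of this list were higher and 0 lower, among them Igf2, H19 and Meg3, where 5.27% of all tested genes were higher. Igf2 (2.53 against 1.62 CPM) and Meg3 (3.45 against 1.18 CPM) were at low levels there. Hepatocyte markers in this gate were also higher in KO (81.4 against 51.1 CPM), and mast cell and basophil markers lower (1.89 against 4.22 CPM). Their part was not tested, and the list was not recounted without doublets.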

How the data were processed

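UMI counts per gene and cell, 1 matrix per genotype, were analysed. Per the labels and methods, the authors made these counts with Cell Ranger 6.0.0 on GRCm38 (mm10), from single cell 3′ v3 libraries, and deposited them unnormalised. The annotation release is not given in the sources used here.

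A minimum of 1000 genes per cell and a maximum of 20% mitochondrial UMIs left 3458 WT and 4417 KO cells. Those below 8500 UMIs (129 and 379) were left out and the others thinned to that depth for gating and for shares of cells. A first set of 6 gates (hepatocyte, endothelial, macrophage, erythroid, megakaryocyte, mast cell and basophil) took precedence over the second set of 4 (stem cell, lymphoid-primed, neutrophil-primed, monocyte and dendritic). Cells passing several gates of a set, or none, entered no gate. The numbers of markers needed were chosen after marker counts had been seen. Doublets were kept in the main setting.

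UMIs were summed per gate as CPM with exact Poisson intervals, and log2 KO/WT has an exact conditional (Clopper-Pearson) interval. These steps were checked on simulated counts. Named genes were the 5 members, Nfkbia, the paralogs Lin28a and Hmga1, list genes past a difference of 25%, and the 5 genes most like Lin28b and Hmga2 among those with a mean of at least 10 CPM. Kit, Ly6a, Hlf, Flt3 and Irf8 were named as markers of the sort and gates, and Drosha, Dicer1, Tut4 and Tut7 as examples of their list. Dlk1, Peg3, Cdkn1c, Hmga1b, the marker values of single gates, and the cells with both Xist and Y-linked UMIs, were added after values had been seen. Members and lists were chosen with earlier results of these data known, and lists were written from general knowledge. Python 3.11.15, scipy 1.17.1 and scanpy 1.11.5 were used.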

Additional observations from a re-analysis of the deposited data

Results flagged for a closer look

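Hmga2 moved in opposite directions between gates, with counting intervals clear of 0. Its log2 KO/WT was 0.19 in the neutrophil-primed gate and 0.40 in the erythroid gate, but -0.11 in the stem cell gate, -0.31 in the lymphoid-primed gate and -1.02 in the monocyte and dendritic gate. The erythroid value of Hmga2 was 0.05 (-0.07 to 0.18) without the cells of both Xist and Y-linked UMIs, nearly all KO cells. In the neutrophil-primed cluster it was -0.24 (-0.32 to -0.16). With gates on all UMIs the lymphoid-primed value was -0.06 (-0.165 to 0.04). Igf2bp3 was higher in the stem cell gate (0.18) and the erythroid gate (0.17) and lower in the monocyte and dendritic gate (-0.34), but its interval included 0 under 6 of 11 alternative settings in the stem cell gate, 5 of 11 in the erythroid gate and 5 of 10 in the monocyte and dendritic gate. Other filters on cells were among these settings. They left the cells of the stem cell gate and of the monocyte and dendritic gate unchanged, so they could not alter the values there. The difference between gates was not tested, since each genotype had 1 library.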

How the results depend on the processing

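No paired analysis was possible because there was 1 library for each genotype. In the stem cell gate, 11 alternative settings and 1 added after seeing the data (without cells of both Xist and Y-linked UMIs) kept the sign of Hmga2, which was -0.21 with UMIs thinned before summing (the cause was not tested), and those of Lin28b, Igf2bp1 and Igf2bp3. The sign of Igf2bp2 changed in 2 of them, to at most 0.06. Of these settings, 2 changed only the filter on cells. Those left every gate compared but the erythroid with the same cells (533 WT and 470 KO in the stem cell gate), so they could not turn a sign there. In the other 4 gates, 23 of 235 values turned sign, 1 of them with an interval clear of 0, Hmga2 in the neutrophil-primed cluster (-0.24). The neutrophil-primed cluster also held most cells of the monocyte and dendritic gate. Igf2bp3 in the erythroid cluster was -0.098 (-0.48 to 0.29), but that cluster held only 15.0% of the WT and 17.4% of the KO erythroid gate. With UMIs thinned before summing, Lin28b was -0.30 and Igf2bp3 -0.11 in the neutrophil-primed gate, and Lin28b 1.23 in the monocyte and dendritic gate, all with intervals that included 0. Only 8 of 14 clusters could be named, none as monocyte and dendritic. Hmga2 in the erythroid gate ranged from 0.054, without the cells of both (nearly all KO cells), to 0.65 in the erythroid cluster, and in the monocyte and dendritic gate from -1.76 to -0.32. In the lymphoid-primed gate it was -0.063 with gates on all UMIs and -0.44 with 1 more marker for every gate.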

Other observations

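Megakaryocyte-gated cells, left out of the comparison of genotypes for their small number, held 10 Hmga2 UMIs in 31 WT cells (7.60 CPM) and 100 in 60 KO cells (46.2 CPM), a log2 KO/WT of 2.60 (1.66 to 3.71). Within the KO gate, 6 cells with both Xist and Y-linked UMIs held 96.2 CPM, 48 cells with Xist alone 40.7 CPM and 4 cells with Y-linked UMIs alone 6.87 CPM. For Lin28b, Igf2bp1, Igf2bp2 and Igf2bp3 the intervals in this gate included 0, with Igf2bp3 at 70.0 CPM (WT) and 69.7 CPM (KO). Mast cell and basophil cells, 15 in WT and 24 in KO, held 103 and 165 CPM of Hmga2 (log2 0.67, 0.16 to 1.201).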
